A study of Mus musculus with 10 samples.

Results

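The fibrillar collagens of the dermis were followed here in the forming mouse external ear: Col1a1 and Col1a2 (the chains of type I collagen), Col3a1 (type III), Col5a1, Col5a2 and Col5a3 (type V) and Col24a1 (type XXIV). The 7 genes were taken by symbol, and all 7 are among the 53465 genes of the count table. RNA of whole pinna prominences, dissected at E14.5 (E for embryonic day), was sequenced from 5 wild-type (WT) embryos and 5 mEC1dup/dup embryos on a C57BL/6J background. The mEC1dup/dup embryos carry an additional copy of the enhancer mEC1 on each allele, made by CRISPR/Cas9 knock-in, and the study asked what this duplication does to Hmx1 and to the growing pinna. Each library is a separate embryo, the embryos were siblings from separate litters, and the sources used here do not say which libraries share a litter. The tissue is a mixture of skin, cartilage, muscle, vessels and nerve, so that fewer cells of a type and less RNA per cell cannot be told apart.

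Fibrillar collagens are the ropes of connective tissue. Their chains fold as trimers in the endoplasmic reticulum into a long uninterrupted triple helix of Gly-X-Y triplets, are hydroxylated and trimmed, and then pack side by side into fibrils that lysyl oxidases crosslink. Type I collagen is the bulk of the dermal fibril and of bone, type III is the partner that is abundant in fetal skin and vessels, type V sits in the core of the fibril and limits its width, and type XXIV is a minor collagen known from developing bone and cornea. Loss of type III or type V chains underlies forms of Ehlers-Danlos syndrome.

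The protein-coding transcripts show how alike the chains are. The translated canonical transcripts held 1453 residues for Col1a1, 1372 for Col1a2, 1464 for Col3a1, 1838 for Col5a1, 1497 for Col5a2, 1739 for Col5a3 and 1733 for Col24a1. The longest unbroken run of Gly-X-Y triplets was 337 to 344 triplets in 6 of the genes, and 216 triplets in Col24a1, whose helix was split over 3 runs of at least 10 triplets. Col1a1 and Col1a2 were the closest pair, with 64.3% identical residues over the aligned positions, and Col5a3 was closest to Col5a1, at 60.1%. Col24a1 shared 40.2% to 46.5% of aligned residues with the other 6. In the GENCODE annotation of GRCm39, Col1a1 lies at chr11:94827050-94843868 on the plus strand, Col1a2 at chr6:4504814-4541555 (plus), Col5a1 at chr2:27776397-27929526 (plus), Col5a3 at chr9:20681337-20726418 (minus) and Col24a1 at chr3:144998233-145257766 (plus). Col3a1, at chr1:45350698-45395840 (plus), and Col5a2, at chr1:45412554-45542442 (minus), are neighbours that point at each other, with 16713 bases and no annotated gene between them. Exons of Col1a1, Col5a2, Col5a3 and Col24a1 overlapped no exon of another gene. An annotated gene on the other strand covered 10.3% of the exon bases of Col1a2, 2.43% of those of Col5a1 and 1.08% of those of Col3a1, and one on the same strand covered a further 1.37% of Col3a1. The overlapping genes of Col1a2 and Col3a1 are not in the count table used here, and those of Col5a1 had at most 151 counts in a library. Since the strand setting of the counting is not given in the sources used here, reads of the partners cannot be told apart at those bases.

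The 10 libraries held 17461544 to 18462073 counted reads, so depth differed little. The labels passed their direct check: Hmx1 was at 21.7 to 29.1 CPM (counts scaled to a common library size) in WT and at 52.8 to 77.5 CPM in mEC1dup/dup. WT replicate 4 stood apart in what this report measures. It was the lowest WT library for all 7 collagen genes, whereas it was the lowest WT library for 26.7% of all tested genes, and it had the highest level of the neuronal tubulin Tubb3 (243 CPM, against 10.7 to 83.9 CPM in the other WT libraries). Calls of the 7 genes and counts of the gene lists are given with all libraries and without this one. At the other end, WT replicate 1 was the highest WT library for 5 of the 7 genes and for 18.9% of all tested genes. Xist, the transcript of the inactive X chromosome in female cells, had 2 to 5 counts in the 5 WT libraries and 12812, 19040, 18165, 2096 and 0 counts in mEC1dup/dup replicates 1 to 5. The embryonic globins Hbb-y, Hbb-bh1 and Hba-x, which fade as development goes on, made up 18.4% to 23.3% of globin counts in WT and 32.5% to 35.6% in mEC1dup/dup.

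These genes are among the most abundant messages of the E14.5 pinna. Together they took 1.76% ± 0.313 (SD, n = 5) of all counts in WT and 1.45% ± 0.0752 (SD, n = 5) in mEC1dup/dup. In WT the share was 2.13%, 1.91%, 1.84%, 1.31% and 1.61% in replicates 1 to 5, and in mEC1dup/dup it was 1.56%, 1.43%, 1.38%, 1.39% and 1.49%. The groups overlapped through WT replicate 4, which was below every mEC1dup/dup library, while the other 4 WT libraries were above all of them. Leaving globin reads out of the total gave 1.76% and 1.45% again. By read number, Col3a1 ranked 3 to 5 and Col1a1 3 to 6 among all genes of a library, and Col1a2 ranked 5 to 9. Col5a3 and Col24a1 ranked between 5884 and 8750.

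Levels were compared between genes per kb of exon. In WT, Col1a1 had 854 ± 197 CPM per kb (SD, n = 5), Col3a1 538 ± 86.7 and Col1a2 373 ± 69.0. Col5a1 had 119 ± 23.6 CPM per kb, Col5a2 68.8 ± 8.10, Col5a3 5.30 ± 0.719 and Col24a1 4.02 ± 0.473. Each gene was above the next in that order in 10 of 10 libraries, except Col5a3 and Col24a1, where Col5a3 was higher in 7 of 10. In mEC1dup/dup these last genes were at 3.35 ± 0.516 and 3.45 ± 0.252 CPM per kb, closer than their spread. The order of the upper 3 depends on the length used, because the annotated exon bases of Col1a2 (12650) far exceed its canonical transcript (5359 bases). Per kb of canonical transcript, a scaling chosen after the data were seen, Col3a1, Col1a1 and Col1a2 had 994, 945 and 880.3 CPM per kb in WT, each above the next in 9 of 10 libraries and by 1.07-fold or less in the WT mean, so that their ranges overlapped. The steps down to type V and from Col5a2 to Col5a3 stayed under both scalings, at 3.12-fold and 13.0-fold with all exon bases and at 7.13-fold and 17.2-fold with canonical transcripts.

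**Figure D1:**
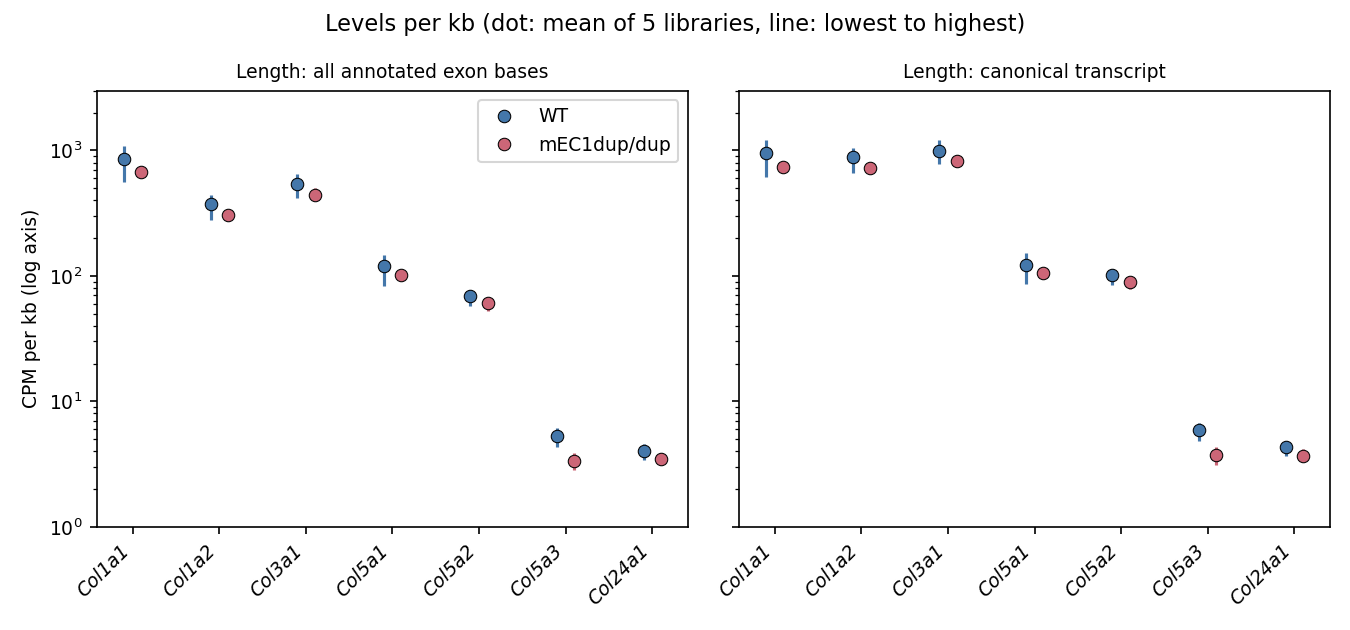
Level of each collagen gene per kb on a log axis, with length taken as all annotated exon bases (left) or as the canonical transcript (right); dots are means of 5 libraries and lines run from the lowest to the highest library. Types I and III lie above type V under both lengths, and Col5a3 and Col24a1 lie lowest, at 3.35 to 5.90 CPM per kb.

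Across the genotypes all 7 genes had a negative fold change, and 1 of them, Col5a3, passed the test. A gene is called here when its adjusted p in edgeR's quasi-likelihood test, after Benjamini and Hochberg, does not exceed 0.05 and it averages a log2 CPM of 1 or more, as the study set it. Of 16426 genes tested, 1.81% were called lower and 0.834% higher, 51.2% had a negative fold change, and the log2 fold changes over all of them had a median of -0.0041. The median of the 7 collagen genes was -0.28. Before adjustment, 6 of the 7 had a p below 0.05, which 16.2% of all tested genes had.

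Col5a3, the third type V chain, was the gene called with all libraries in the fit. It was at 40.2, 37.2, 33.6, 29.7 and 41.9 CPM in WT replicates 1 to 5 and at 26.3, 23.3, 19.6, 19.4 and 26.9 CPM in mEC1dup/dup replicates 1 to 5. Every mEC1dup/dup library was below every WT library, a separation in that direction that 2.75% of all tested genes showed. The mean fell from 36.5 ± 4.95 to 23.1 ± 3.55 CPM (SD over 5 libraries). This is a log2 fold change of -0.66 ± 0.11 (SE; 95% confidence interval -0.91 to -0.42; adjusted p = 0.0107), or 36.8% lower. The call held without any 1 library, with log2 fold changes of -0.73 to -0.60 and adjusted p of 0.00289 to 0.0391 in edgeR's test. It was lost when the Xist level was a term of the fit (log2 fold change -0.52, adjusted p = 0.396), a term under which 1 gene was called lower and 2 higher in the whole table. With the share of embryonic globins as a term it was lost as well (log2 fold change -0.18, adjusted p = 0.966), with no gene called in the whole table. In mEC1dup/dup replicate 5, the mEC1dup/dup library with no Xist count, Col5a3 was at 26.9 CPM. That was the highest of the 5 mEC1dup/dup libraries and below all 5 WT libraries. With 5 WT libraries and 1 mEC1dup/dup library at 5 or fewer Xist counts, no comparison within that level could be tested. Embryo sex, as far as Xist marks it, and the genotype cannot be told apart here.

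The type I chains were highest in 4 of the WT libraries, and their difference did not pass the test. Col1a1 was at 7109, 6292, 5737, 3650.4 and 5243 CPM in WT replicates 1 to 5 and at 4640.3, 4405, 4141, 4314 and 4487 CPM in mEC1dup/dup. The highest mEC1dup/dup library was below 4 of the WT libraries, and WT replicate 4 was below all 5 of mEC1dup/dup. The log2 fold change was -0.35 ± 0.13 (SE; interval -0.63 to -0.07; adjusted p = 0.188). Col1a2 was at 5613, 5267, 5079, 3512 and 4119 CPM in WT and at 4032, 3905, 3741, 3859 and 3918 CPM in mEC1dup/dup, with the same arrangement of libraries. Its log2 fold change was -0.28 ± 0.10 (SE; interval -0.50 to -0.06; adjusted p = 0.185). The spread was unequal: the coefficient of variation of Col1a1 was 23.1% in WT and 4.25% in mEC1dup/dup, and that of Col1a2 was 18.5% and 2.7%.

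Col3a1, the type III chain, did not pass either, and its libraries overlapped more than those of type I. It was at 6674, 5739, 5874, 4324 and 5027 CPM in WT replicates 1 to 5 and at 5104, 4419.6, 4287, 4183 and 4842 CPM in mEC1dup/dup. WT replicates 4 and 5 lay within the mEC1dup/dup range and the other 3 WT libraries lay above it. The log2 fold change was -0.28 ± 0.10 (SE; interval -0.49 to -0.07; adjusted p = 0.168).

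The main type V chains had log2 fold changes close to that of Col24a1, and none of the 3 passed. Col5a1, which nucleates fibrils together with Col5a2, was at 1274, 1109.9, 1130.3, 729 and 968 CPM in WT and at 958, 877, 860.5, 825 and 899.8 CPM in mEC1dup/dup. Its log2 fold change of -0.24 ± 0.11 (SE) had an interval that reached 0.01 (adjusted p = 0.320). Col5a2 was at 859, 850.1, 765, 639.8 and 732 CPM in WT and at 737, 685, 679, 589 and 685 CPM in mEC1dup/dup, with a log2 fold change of -0.19 ± 0.08 (SE; interval -0.36 to -0.02; adjusted p = 0.246). For both genes the libraries of the genotypes overlapped. Col24a1, the minor type XXIV collagen, was at 34.0, 29.1, 34.6, 26.0 and 29.7 CPM in WT and at 29.5, 24.9, 26.4, 24.9 and 25.7 CPM in mEC1dup/dup. Its log2 fold change was -0.22 ± 0.08 (SE; interval -0.40 to -0.05; adjusted p = 0.189), and its groups overlapped too.

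**Figure D2:**
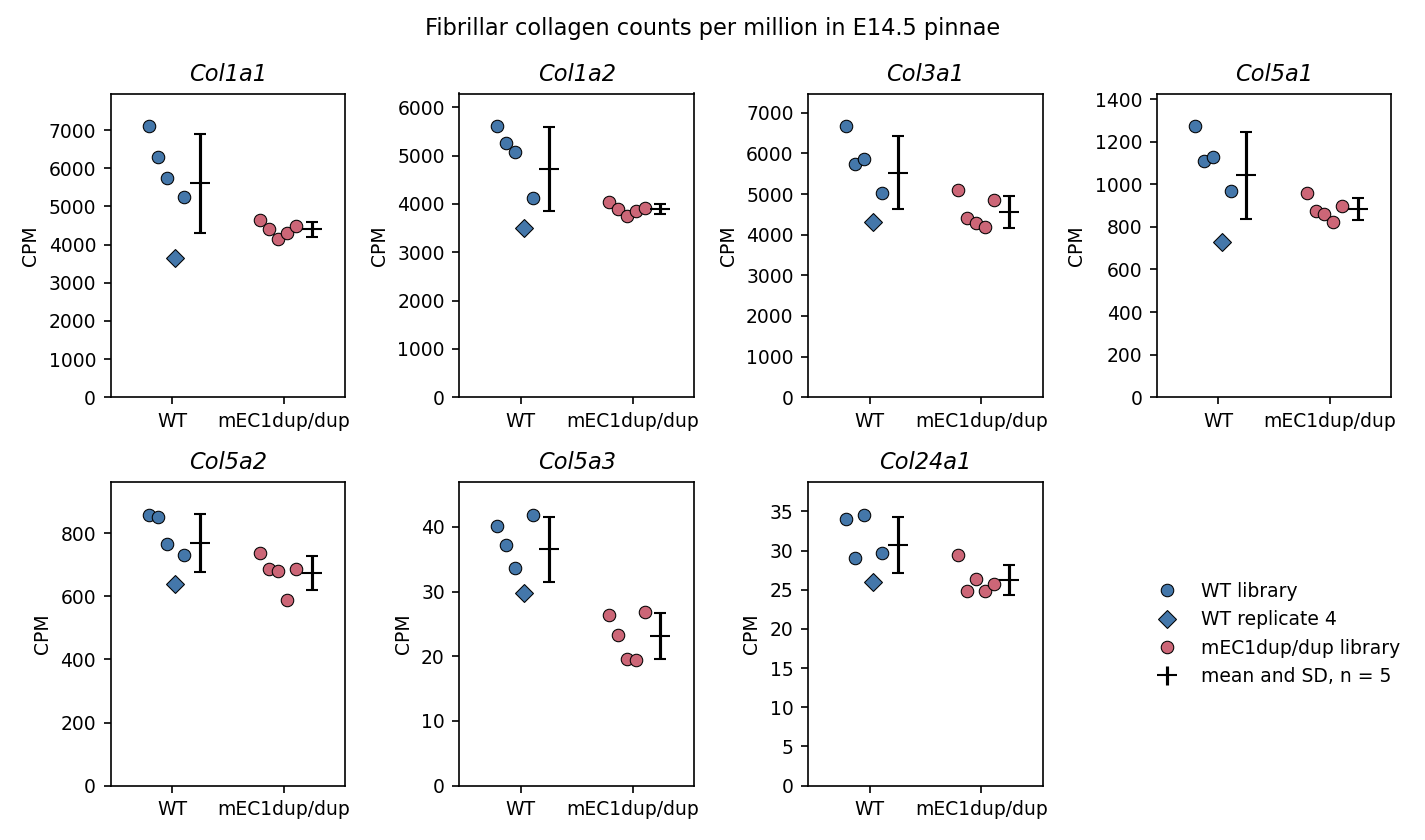
CPM of the 7 collagen genes in each library, with WT in blue, mEC1dup/dup in red, WT replicate 4 as a diamond, and the mean and SD of 5 libraries beside each group; every axis starts at 0. Col5a3 is the panel in which the groups do not overlap (29.7 CPM is the lowest WT library and 26.9 CPM the highest mEC1dup/dup library), and the WT libraries spread more widely than mEC1dup/dup for Col1a1, Col1a2 and Col5a1.

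The number of genes that passed depended on WT replicate 4. Without WT replicate 4, 6 of the 7 were called lower, where 2.87% of the 16593 genes then tested were called lower: Col1a1 (log2 fold change -0.47 ± 0.07 SE, adjusted p = 0.00300), Col1a2 (-0.37, adjusted p = 0.00818), Col5a1 (-0.34, adjusted p = 0.0105), Col3a1 (-0.35, adjusted p = 0.0167), Col5a2 (-0.25, adjusted p = 0.0394) and Col5a3 (-0.73, adjusted p = 0.00289). Col24a1 stayed just outside, with a log2 fold change of -0.28 ± 0.07 (SE) and an adjusted p of 0.0515. No other left-out library added or removed a call among the 7. With WT replicate 1 left out instead, the log2 fold change was -0.25 for Col1a1 and -0.15 for Col5a1. The labels and the methods give no ground for leaving WT replicate 4 out, and its library size (17816547 counts) was within the range of the others. Besides Tubb3, it had the lowest summed level of the dermal mesenchyme markers in WT (2406 CPM, against 2422 to 2787 CPM) and the highest summed level of the Schwann and neural markers (427 CPM, against 129 to 218 CPM). The neural sum includes Tubb3, which gave 243 CPM of it in WT replicate 4. The part of tissue make-up in its low collagen counts was not tested.

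With the Xist level as a term, no collagen gene passed and the estimates stayed negative, from -0.52 for Col5a3 to -0.22 for Col5a2, with adjusted p of 0.396 to 0.720. With the embryonic globin share as a term, no collagen gene passed either, the estimates of the other 6 genes turned positive, Col1a1 to 1.02, and that of Col5a3 was -0.18. That share was at least 32.5% in every mEC1dup/dup library and at most 23.3% in every WT library, so a difference in developmental age and the genotype cannot be told apart by it. Within WT, embryonic globin of 18.4%, 21.6%, 20%, 23.3% and 23.1% in replicates 1 to 5 stood beside collagen of 2.13%, 1.91%, 1.84%, 1.31% and 1.61%, and with 5 libraries no relation was tested. The 5 mEC1dup/dup libraries held 1.38% to 1.56% collagen.

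**Figure D3:**
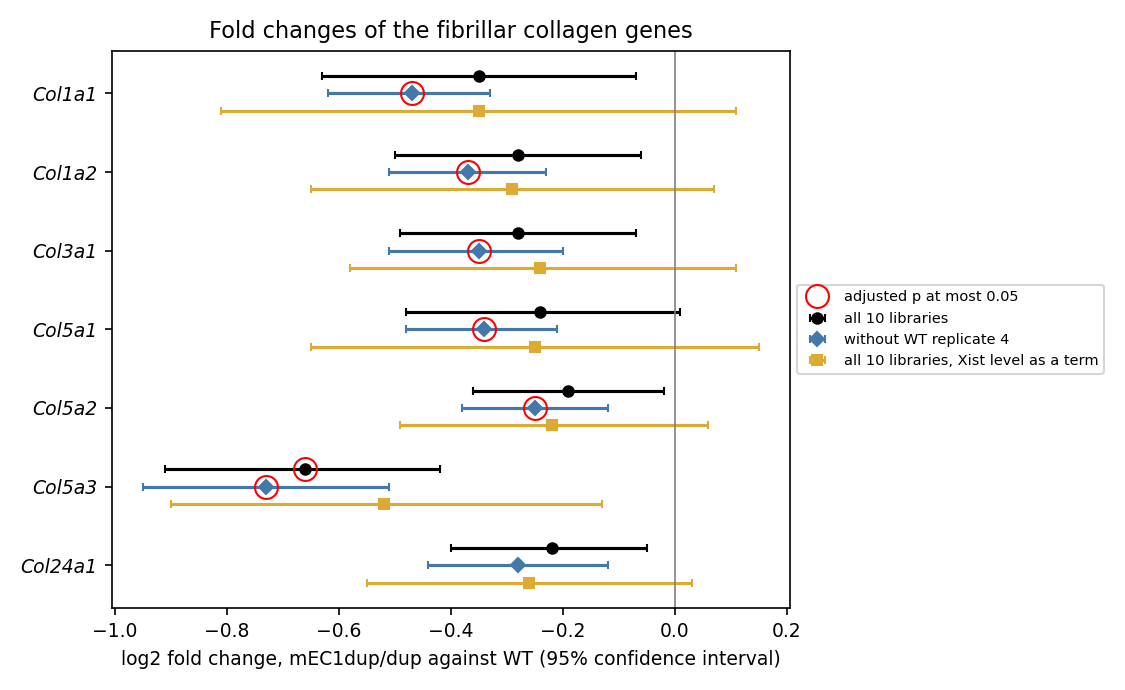
Log2 fold change of each collagen gene with its 95% confidence interval, from all 10 libraries (black), without WT replicate 4 (blue) and with the Xist level as a term (yellow); red rings mark an adjusted p of at most 0.05. Col5a3 is ringed with all libraries at -0.66, 6 genes are ringed without WT replicate 4, and none is ringed with the Xist term.

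**Figure D4:**
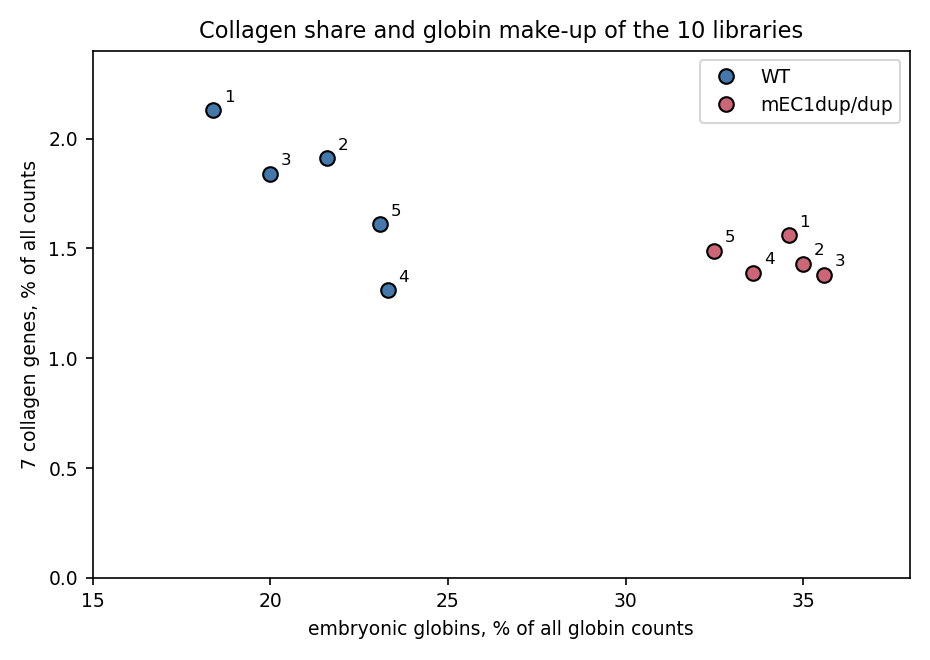
Share of all counts taken by the 7 collagen genes in each library against the share of embryonic globins among globin counts, numbered by replicate. The genotypes separate along the horizontal axis, at 18.4% to 23.3% and 32.5% to 35.6%, and overlap along the vertical axis through WT replicate 4 at 1.31%.

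The balance between chains moved less than their levels, and the largest move was that of Col5a3 against Col5a1. Read counts of Col1a1 were 1.18 ± 0.0980 times those of Col1a2 in WT and 1.13 ± 0.0179 times in mEC1dup/dup (SD, n = 5 each), and all mEC1dup/dup ratios, from 1.11 to 1.15, lay inside the WT range of 1.04 to 1.27. Per kb of canonical transcript the messages of the type I chains stood at 1.07 ± 0.0888 in WT and 1.02 ± 0.0166 in mEC1dup/dup. Col3a1 stood at 1.00 ± 0.107 times Col1a1 in WT and 1.04 ± 0.0540 in mEC1dup/dup. Col5a1 stood at 1.35 ± 0.142 times Col5a2 in WT and 1.31 ± 0.0517 in mEC1dup/dup. Col5a3 reads came to 3.58% ± 0.592 of the Col5a1 reads in WT and to 2.60% ± 0.288 in mEC1dup/dup. In single libraries that share was 3.16%, 3.35%, 2.97%, 4.07% and 4.33% in WT and 2.74%, 2.66%, 2.28%, 2.35% and 2.98% in mEC1dup/dup, so the groups touched at WT replicate 3 and mEC1dup/dup replicate 5. Unlike the levels, this share did not place WT replicate 4 among the low libraries. Ratios were described and not tested.

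The abundant chains varied together from embryo to embryo. With each genotype's mean taken out, the log2 CPM of Col5a1 had a Pearson r of 0.974 with Col1a1 over the 10 libraries (Spearman rho 0.903), the highest of the 14083 genes compared. Col1a2 had 0.961 (rank 7), Col3a1 0.911 (rank 64) and Col5a2 0.844 (rank 268). Col24a1 had 0.708 (rank 983) and Col5a3 0.583 (rank 1866), so that many genes outside the 7 tracked Col1a1 more closely than these did. Without WT replicates 1 and 4, the libraries farthest from the middle for Col1a1, r over 8 libraries was 0.891 for Col1a2, 0.792 for Col5a1, 0.770 for Col3a1, 0.690 for Col5a2, 0.232 for Col5a3 and 0.139 for Col24a1. The genes outside the 7 that were most like Col1a1 were Sema4c (0.973), Rprd1b (0.972), H6pd (0.969), Etv1 (0.969) and Sipa1l3 (0.963), which had r of 0.555 to 0.776 without the same libraries. All values of a library share its depth and tissue make-up, and the likeness of Col5a3 and Col24a1 rests on those 2 libraries.

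The other fibrillar collagens, which belong to cartilage, had none that passed, with or without WT replicate 4. Col2a1, the main cartilage collagen, had a log2 fold change of -0.30 ± 0.23 (SE; adjusted p = 0.576), and ranged from 2904 to 5207 CPM in WT and from 1369 to 4193 CPM in mEC1dup/dup. Col11a1 and Col11a2, the cartilage counterparts of type V, had -0.42 ± 0.20 (adjusted p = 0.326) and -0.52 ± 0.25 (adjusted p = 0.331), and Col27a1, a collagen of growth cartilage, had -0.12 ± 0.15 (adjusted p = 0.746). mEC1dup/dup replicate 1 was the lowest of all 10 libraries for all 4, and without it the log2 fold changes were -0.12 for Col2a1, -0.26 for Col11a1, -0.32 for Col11a2 and -0.01 for Col27a1.

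Of the genes that fold and modify procollagen, 3 of 20 were called lower (1.81% over all tested genes) and none higher, with a median log2 fold change of -0.11. P4ha1, a catalytic subunit of the prolyl 4-hydroxylase that stabilises the helix, went from 215 ± 12.1 CPM in WT to 174 ± 7.49 CPM in mEC1dup/dup (SD, n = 5; log2 fold change -0.31 ± 0.04 SE, adjusted p = 0.00493). P4ha2, the alternative subunit of that enzyme, went from 90.9 ± 8.89 to 73.4 ± 3.19 CPM (adjusted p = 0.0224), and Fkbp14, a prolyl isomerase of the endoplasmic reticulum, from 94.7 ± 4.34 to 82.8 ± 2.00 CPM (adjusted p = 0.0200). P4ha1 and Fkbp14 had every mEC1dup/dup library below every WT library, as 2.75% of all tested genes had. When 1 library at a time was left out, P4ha1 was called in 10 of 10 fits, Fkbp14 in 8 and P4ha2 in 4 (adjusted p up to 0.0783 in edgeR's test). The count of the list was 5 without WT replicate 4, and 1 without WT replicate 2 or mEC1dup/dup replicate 3. Serpinh1, the collagen chaperone, did not pass, with a log2 fold change of -0.10 ± 0.03 (SE; adjusted p = 0.130). It too had every mEC1dup/dup library below every WT library, which made 3 of 20 in this list.

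Of 13 genes that cleave and crosslink procollagen, 2 were called lower (1.81% over all tested genes), with a median of -0.20. Adamts14, an N-propeptide protease, fell from 30.7 ± 3.15 to 22.1 ± 1.42 CPM (log2 fold change -0.48 ± 0.08 SE, adjusted p = 0.00804). Pcolce, which enhances removal of the C-propeptide, fell from 113 ± 11.3 to 94.1 ± 5.08 CPM (adjusted p = 0.0444). Adamts14 was called in 10 of 10 fits that left out 1 library, and Pcolce in 3 (adjusted p up to 0.114 in edgeR's test), those without WT replicate 4, WT replicate 5 or mEC1dup/dup replicate 5. limma-voom did not call Pcolce (adjusted p = 0.0506). The count of the list was 3 without WT replicate 4. The lysyl oxidase Lox had a log2 fold change of -0.10 ± 0.08 (SE; adjusted p = 0.620).

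Proteins of the fibril surface and matrix proteins listed with them gave the largest count. Of 14 such genes, 9 were called lower, as were 1.81% of all tested genes, and none higher. All 14 fold changes were negative, as were 51.2% over all tested genes, and the median was -0.33. The small proteoglycans Lum, Kera, Fmod and Aspn, which regulate fibril width and spacing, were each lower in every mEC1dup/dup library than in any WT library, as were 7 of the 14 and 2.75% of all tested genes. Lum was at 417, 416, 396, 395 and 367 CPM in WT and at 353, 312, 330.2, 319 and 308 CPM in mEC1dup/dup (log2 fold change -0.30 ± 0.05 SE, adjusted p = 0.00740). Kera went from 17.3 ± 3.02 to 9.83 ± 1.73 CPM (-0.82 ± 0.14 SE, adjusted p = 0.0101), and Fmod (-0.46 ± 0.08 SE, adjusted p = 0.0101) and Aspn (-0.34 ± 0.06 SE, adjusted p = 0.0127) were lower too. Col12a1, a collagen that binds the surface of type I fibrils, fell from 429 ± 38.4 to 314 ± 20.2 CPM (-0.45 ± 0.06 SE, adjusted p = 0.00393). Thbs2, a matricellular protein needed for normal fibrils in skin, fell from 157 ± 17.7 to 117 ± 9.13 CPM (-0.43 ± 0.07 SE, adjusted p = 0.0117). Sparc, Col14a1 and Bgn made up the rest of the 9. Without WT replicate 4 the count was 11 of 14, beside 2.87% of all genes then tested, and with the Xist level as a term, which left 1 lower and 2 higher genes in the whole table, it was 0 of 14. The log2 fold changes under the Xist term were -0.37 for Lum, -0.94 for Kera, -0.55 for Col12a1, -0.55 for Fmod and -0.35 for Thbs2. A term for the share of embryonic globins also gave 0 of 14, with log2 fold changes of -0.01 for Kera, -0.02 for Col12a1, -0.17 for Lum and -0.18 for Thbs2, but of -0.68 for Fmod and -0.91 for Aspn.

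Among receptors and degrading enzymes, 1 of the 13 tested genes was called lower (1.81% over all tested genes): Itga10, a collagen-binding integrin subunit of chondrocytes, with 12.9 ± 2.69 CPM in WT and 8.0 ± 1.57 CPM in mEC1dup/dup (log2 fold change -0.68 ± 0.16 SE, adjusted p = 0.0377). Itga10 was called in 3 of 10 fits that left out 1 library (adjusted p up to 0.102 in edgeR's test), those without WT replicate 4, WT replicate 5 or mEC1dup/dup replicate 2, and the count of the list was 2 without WT replicate 4. Gp6, Mmp8 and Mmp13 were too low to be tested. With the Xist level as a term, no gene of the folding, cleavage and receptor lists passed. The folding genes P4ha1, Fkbp14 and P4ha2 then had log2 fold changes of -0.35, -0.23 and -0.27. Adamts14 was at -0.36 and Pcolce at -0.19 under the same term. Of 14 genes of TGF-beta signalling, a pathway known to raise collagen transcription, none was called and the median was 0.057. Without WT replicate 4, 3 of them were called lower, Tgfb1 among them (adjusted p = 0.0261), and without any other single library none was. DESeq2's Wald test also called Tgfb1 (adjusted p = 0.0392). With all libraries the smallest p values there belonged to Tgfb1, a ligand (-0.25 ± 0.07 SE, adjusted p = 0.0898), and to Tgfbi, a matrix protein named for its induction by TGF-beta (0.15 ± 0.06 SE, adjusted p = 0.199).

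**Figure D5:**
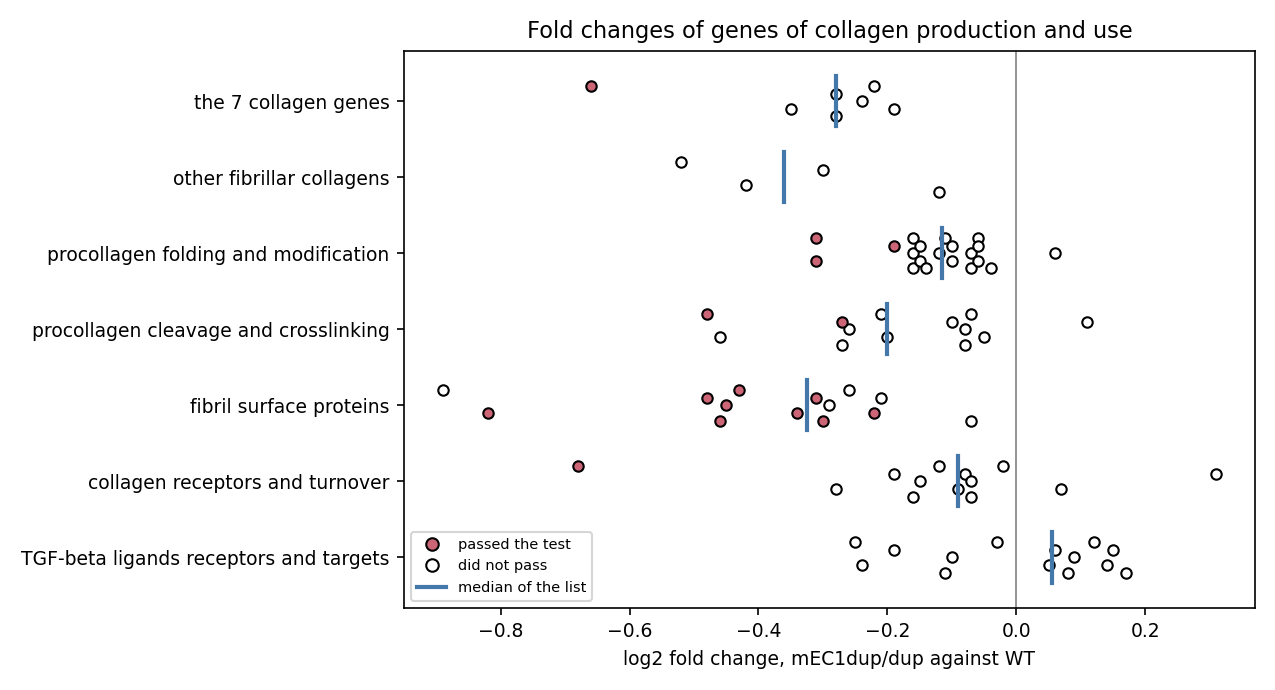
Log2 fold change of every tested gene in the 7 collagen genes and 6 lists of genes of collagen production and use. Filled points passed the test and blue lines are list medians. The fibril surface list holds 9 filled points with a median of -0.33, and the TGF-beta list holds none with a median of 0.057.

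Markers of the tissues in the sample moved unevenly beside these results, and their counts stand beside 1.81% of all tested genes called lower and 2.75% with every mEC1dup/dup library below every WT library. Of 8 dermal mesenchyme markers, Dpt and Lum were called lower while Dcn (-0.29, adjusted p = 0.0748) and Twist2 (-0.18) did not pass and Pdgfra, Prrx1, Twist1 and Crabp1 had log2 fold changes of -0.01 to 0.15. The summed level was 2406 to 2787 CPM in WT and 2320.5 to 2793 CPM in mEC1dup/dup. Of 7 epidermal markers, 4 were called lower (Krt5, Krt14, Krt10 and Perp). Krt15 (-0.50, adjusted p = 0.0766) and Cdh1 (-0.45, adjusted p = 0.0947) did not pass, and Epcam had a log2 fold change of 0.04. The epidermal sum was 856 to 1578 CPM in WT and 658 to 849.9 CPM in mEC1dup/dup, without overlap. Krt10, which marks differentiating layers, went from 107 ± 43.0 to 29.3 ± 4.05 CPM. Of 7 muscle markers, Ckm and Myh3 were called lower, with sums of 1548 to 2382 CPM and 1132 to 1782 CPM, while Mylpf (-0.52, adjusted p = 0.0579), Actc1 (-0.22), Tnnt1 (-0.20), Myod1 (0.09) and Myog (0.12) did not pass. Of 6 perimysial and tendon markers, Tnmd and C1qtnf3 were called lower, with sums of 284 to 362 CPM and 267 to 296 CPM. The other 4 did not pass and were mixed, with log2 fold changes of 0.24 for Scx (adjusted p = 0.0758), 0.29 for Thbs4, 0.20 for Mkx and -0.17 for Prss35, and the median of the list was 0.013. Scx was called higher by DESeq2's Wald test, at an adjusted p of up to 0.1 and without mEC1dup/dup replicate 1. No chondrocyte, osteoblast, endothelial, Schwann and neural or macrophage marker was called, with or without WT replicate 4. Without it, 2 dermal, 6 epidermal, 2 muscle and 1 perimysial and tendon marker were called lower. Over all fits that left out 1 library these counts ran from 2 to 3, 2 to 6, 1 to 3 and 1 to 2, and with the Xist level or the embryonic globin share as a term no marker of these lists was called. Chondrocyte sums were 5375 to 8915 CPM in WT and 2328 to 6936 CPM in mEC1dup/dup, and osteoblast sums, which bear on type I collagen, 69.7 to 141 CPM and 48.6 to 90.8 CPM. Endothelial sums were 407 to 506 and 423 to 477 CPM, neural sums 129 to 427 and 117 to 256 CPM, and macrophage sums 99.4 to 119 and 99.3 to 118 CPM. No marker of any of these lists had 0 counts throughout, and the part of tissue make-up in the collagen values was not tested.

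The proximal promoters of the genes are given as a description of their sequence. RefSeq's promoter table (GRCm38.p6) held 5 of the 7 (Col1a2, Col3a1, Col5a1, Col5a3 and Col24a1). Both strands of the 250 bases before each start were searched for 3 motifs, and no matches in these genes overlapped. The TATA box, searched as TATAAA, is in 12.4% of the 32851 promoters of the table. The CCAAT box, by its own letters, is in 33.8% of them. The GC box, searched as GGGCGG, is in 32.7%. Stretches of 130 bases that end before the first base of any GENCODE transcript of the gene are shown for Col5a3 (chr9:20815123-20815252, minus strand, 185 to 56 bases before the RefSeq start), Col5a1 (chr2:27886255-27886384, plus strand, 170 to 41 bases) and Col3a1 (chr1:45311408-45311537, plus strand, 130 to 1 bases), as the gene that was called, its closest paralogue and the abundant type III gene. Capitals mark the matches.
Col5a3: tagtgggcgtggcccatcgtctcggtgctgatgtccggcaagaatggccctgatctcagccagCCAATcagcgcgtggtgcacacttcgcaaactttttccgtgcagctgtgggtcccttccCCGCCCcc
Col5a1: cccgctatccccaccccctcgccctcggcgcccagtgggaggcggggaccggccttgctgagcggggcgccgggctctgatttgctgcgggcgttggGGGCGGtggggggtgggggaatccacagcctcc
Col3a1: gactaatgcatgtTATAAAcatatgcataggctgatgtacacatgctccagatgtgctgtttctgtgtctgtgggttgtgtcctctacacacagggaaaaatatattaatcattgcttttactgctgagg
Col5a3 held CCAAT 122 bases before its start and the GC box on the opposite strand at 63 and 41 bases, the latter outside the stretch shown. Col5a1 held no CCAAT and held the GC box on the same strand at 73 bases and, outside the stretch shown, on the opposite strand at 205 bases. Col3a1 held TATAAA at 117 bases and neither of the others. Col1a2 held CCAAT at 109 bases and the GC box at 205 and 188 bases, and Col24a1 held none of the 3. A match of letters describes the window and is no measure of binding.

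The match to the miR-29 seed was looked at because miR-29 is a well-known repressor of collagen messages. More matches here than in other genes follow from that choice and are no result of these data. RefSeq gives 3 mature forms, here with the seed (bases 2 to 8) in capitals.
mmu-miR-29a-3p: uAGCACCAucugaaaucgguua
mmu-miR-29b-3p: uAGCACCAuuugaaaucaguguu
mmu-miR-29c-3p: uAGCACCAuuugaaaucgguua
All 3 share the seed AGCACCA, whose match in a message is TGGTGCT. In the 3′ UTR of the canonical GENCODE transcripts, 6 of the 7 genes held it at least once, as did 17.0% of 14340 tested genes with a 3′ UTR. Col5a1 held 4 matches and Col5a3 3, while 3.08% of those genes held at least 2. Col1a1, Col3a1, Col5a2 and Col24a1 held 1 each and Col1a2 none. The 3 sites of Col5a3 are at chr9:20682075-20682099, chr9:20681798-20681822 and chr9:20681546-20681570, and the single sites of Col1a1 and Col3a1 at chr11:94843348-94843372 and chr1:45388126-45388150 (GRCm39), each shown with the match in capitals.
Col5a3 site 1: ccccacatgggctcctTGGTGCTga
Col5a3 site 2: cctccaccaggcctttTGGTGCTat
Col5a3 site 3: aaatcaggatcctacaTGGTGCTgc
Col1a1 site 1: ggtgggaaggaatttcTGGTGCTat
Col3a1 site 1: cttcaaaatgtctcaaTGGTGCTat
The 3′ UTR lengths were 794 bases for Col5a3, 2498 for Col5a1 and 1393 for the median tested gene. The shares over the tested genes were not matched for this length. MicroRNAs were not measured in these libraries, and the part of miR-29 in the collagen values was not tested. The search was added after the expression values were seen.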

How the data were processed

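The deposited table holds raw read counts per Ensembl gene that the authors made from their pinna libraries, with no normalization; the submitters' processing notes name fastp, FastQC, STAR, featureCounts and the build GRCm39. The annotation release and the strand setting are not given in the sources used here, and labels and methods name different library kits, neither of which marks strand. Of 53465 gene IDs, 49355 matched the GENCODE annotation; the others held 0.111% of counts.

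Genes with enough reads (edgeR's filterByExpr) were tested on the counts as deposited with edgeR 4.0.16 (TMM factors, quasi-likelihood test, Benjamini-Hochberg adjustment over all 16426 genes) in R 4.3.3, following the study's thresholds. CPM values use TMM-scaled library sizes, and log2 CPM a prior count of 2. The statistics were tested on simulated data. The 10 libraries of 17461544 to 18462073 counts carry counting error far below the spread between embryos for the abundant genes.

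The members and gene lists were chosen with earlier results of these data known. The genes named are the 7 members, the other fibrillar collagens, and from each further list every called gene, up to 6 by smallest p, or the 2 of smallest p where none was called; Lox, Serpinh1, Dpt and other genes named beside them were chosen after their values were seen. Marker genes are given by list. Likeness to Col1a1 was ranked over genes with an average log2 CPM of at least 1. Alternatives were other scalings, filters, tests (DESeq2 1.42.0, limma 3.58.1), terms for replicate, Xist and embryonic globin share, and leaving out each library; lengths of canonical transcripts, the Col5a3 and Col24a1 ratios and miR-29 matches were added after the data were seen. Nothing was left out of the count table.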

Additional observations from a re-analysis of the deposited data

Results flagged for a closer look

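In 62 groups of 5 libraries looked at, 2 held a library far from the others, and chance alone does so in about 1 of 20 groups. WT replicate 4 had 141 CPM of Tgfbi, a matrix protein, against 159 to 166 CPM in the other WT libraries. mEC1dup/dup replicate 5 had 24.5 CPM of the procollagen protease Adamts14, against 21.1 to 21.9 CPM in the other mEC1dup/dup libraries, and was still below every WT library. None of the 7 collagen genes, their summed share or their ratios was marked this way, WT replicate 4 included.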

How the results depend on the processing

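Other scalings (DESeq2 size factors, upper quartile, total counts alone), no filter, at least 10 counts in every library, limma-voom, DESeq2's Wald test, no minimum on average log2 CPM and an adjusted p of up to 0.1 left Col5a3 as the 1 collagen gene called, and all 7 fold changes negative. DESeq2's Wald test called 509 genes lower and 321 higher, and an adjusted p of up to 0.1 gave 488 and 324, against 297 and 137. With the Xist level as a term, 0 collagen genes (Col5a3 at -0.52), 0 fibril surface genes, 1 lower and 2 higher genes overall were called (1535 genes at an unadjusted p below 0.05). With the embryonic globin share as a term the calls were 0 throughout (793 genes at an unadjusted p below 0.05), Col5a3 was at -0.18, and the fold changes turned positive for Col1a1 (1.02), Col1a2 (0.88), Col3a1 (0.85), Col5a1 (0.97), Col5a2 (0.31), Col24a1 (0.42), Col11a1 (0.09), Col11a2 (0.52), Col2a1 (0.94), Col27a1 (0.00), P4ha2 (0.31), Pcolce (0.23) and Tgfb1 (0.20). Among the called folding and cleavage genes, they stayed negative for P4ha1 (-0.32), Fkbp14 (-0.29) and Adamts14 (-0.11). The embryonic globin share separates the genotypes, so the term and the genotype compete for the same difference. Leaving out 1 library at a time, the collagen genes called ranged from 1 to 6 (6 without WT replicate 4), genes called lower from 120 to 476 and higher from 34 to 179, and fibril surface genes from 6 to 11; the fold change of Col1a1 ranged from -0.47 to -0.25, Col1a2 from -0.37 to -0.21, Col3a1 from -0.35 to -0.20, Col5a1 from -0.34 to -0.15, Col5a2 from -0.25 to -0.14, Col5a3 from -0.73 to -0.60 and Col24a1 from -0.28 to -0.18. The ratio of Col5a1 to Col5a2, -0.0303 on the log2 scale between genotypes, ranged from -0.0888 to 0.00655.

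The labels share replicate numbers, but nothing in the labels pairs the embryos and not every pair correlated above 0.1: deviations of same-numbered libraries correlated at -0.0641, 0.225, 0.259, 0.428 and 0.305 for numbers 1 to 5, and 4 of 10 libraries correlated best with their own number in the other genotype, where chance gives 2. With a replicate block 3 collagen genes were called, Col3a1 (-0.26, adjusted p = 0.0414), Col5a2 (-0.18, adjusted p = 0.0242) and Col5a3 (adjusted p = 0.000379), and 487 genes lower and 200 higher overall; the tendon marker Thbs4 was called higher. The lowest counts among the collagen genes were 359 for Col5a3 and 452 for Col24a1 in a library, and intervals from counting would cover that error only. Where the cause of a change with the setting is not stated, the cause was not tested.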
